A study of Mus musculus with 3 samples.

Results

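Transcript models were examined in a table of transcripts assembled for mouse testis. Those of interest began upstream of the annotated start of a protein-coding gene but ended near the annotated end. A total of 557 models at 467 genes met this description, of 50081 models in the table and of 7033 models in the same category. The 467 genes were 3.51% of the 13307 genes tested, meaning those with an NM-coded model and a RefSeq-derived one. That category held models with a gene symbol and a code beginning NM_N, a code whose meaning the sources do not state. Its models had CUFF identifiers, the form used by the Cufflinks assembler. RefSeq-derived models had codes containing _R. The members were chosen by code, symbol and position. The 5′ end had to lie at least 200 bp upstream of every RefSeq-derived model of the same symbol, chromosome and strand, and the 3′ end less than 200 bp from at least 1 of them. Of the 7033 models, 37 had no RefSeq-derived model to compare with, and 1539 met the start rule with any 3′ end. With 1 member per gene, the end was exactly a RefSeq-derived end in 177 of 467 genes (37.9%) and within 20 bp in 250 (53.5%).

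The series held 3 libraries of total RNA from testes of wild-type C57BL/6J mice. There was 1 CAGE library from mice at 10.5 days post partum, 1 CAGE library from adults and 1 PAS-Seq library from adults. CAGE marks the capped 5′ ends of transcripts and PAS-Seq the 3′ ends that carry a poly(A) tail. The table gave 1 set of models for the whole series. It held no read count and no value per library, so depth is unknown, the ages could not be compared, and a listed model says nothing of how much of it was made. Whole testis holds germ cells and somatic cells, and the table does not tell which cells a model came from or whether a start is used only in testis.

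Transcription by RNA polymerase II begins at a promoter, and many genes have more than 1. An upstream promoter usually adds a first exon that is spliced into the body of the gene, which can change the leader of the messenger RNA, the first part of the protein, or neither. Male germ cells are known for their use of alternative promoters, and Gata1, a transcription factor of blood cells and Sertoli cells, is a textbook case of a distal first exon used in testis. Many mammalian promoters lie in CpG islands, stretches rich in the dinucleotide CG, and many CpG-island promoters fire in both directions.

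Promoter sequence is shown first for 3 genes for which a later annotation listed 2 starts at a spacing close to that between the new and the annotated start. No sequence could be read at the table's own mm9 positions. Instead, the windows came from the RefSeq promoter table of build GRCm38.p6, matched by symbol or by RefSeq accession and then by the spacing between 2 listed starts of the gene, not by position, so the listed upstream start may not be the new start itself. The spacings differed by 2 bp for Psma6, 14 bp for Klhl5 and 28 bp for Neto2. The 250 bases before each start are given 5′ to 3′, with CG dinucleotides in capitals. The genes were chosen after their values were seen, for a wide spacing and for a contrast between the starts. Psma6 encodes an alpha-type subunit of the proteasome core, Klhl5 a Kelch-like protein and Neto2 an auxiliary subunit of kainate receptors.
Psma6, before the upstream start, chr12:55383972-55384221, plus strand: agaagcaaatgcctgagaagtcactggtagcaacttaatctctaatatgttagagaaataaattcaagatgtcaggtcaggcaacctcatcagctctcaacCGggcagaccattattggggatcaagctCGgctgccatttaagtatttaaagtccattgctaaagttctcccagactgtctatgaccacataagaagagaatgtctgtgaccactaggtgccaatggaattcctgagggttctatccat
Psma6, before the annotated start, chr12:55398575-55398824, plus strand: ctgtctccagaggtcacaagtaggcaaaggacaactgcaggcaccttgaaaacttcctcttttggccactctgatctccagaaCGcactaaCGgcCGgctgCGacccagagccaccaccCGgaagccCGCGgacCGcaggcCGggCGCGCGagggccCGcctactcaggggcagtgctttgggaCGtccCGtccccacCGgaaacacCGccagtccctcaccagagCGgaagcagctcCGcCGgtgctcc
Klhl5, before the upstream start, chr5:65107318-65107567, plus strand: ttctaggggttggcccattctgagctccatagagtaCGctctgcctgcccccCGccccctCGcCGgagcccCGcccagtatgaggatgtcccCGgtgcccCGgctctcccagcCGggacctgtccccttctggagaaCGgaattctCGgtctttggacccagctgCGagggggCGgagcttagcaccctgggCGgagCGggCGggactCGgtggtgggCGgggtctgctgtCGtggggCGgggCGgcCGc
Klhl5, before the annotated start, chr5:65130981-65131230, plus strand: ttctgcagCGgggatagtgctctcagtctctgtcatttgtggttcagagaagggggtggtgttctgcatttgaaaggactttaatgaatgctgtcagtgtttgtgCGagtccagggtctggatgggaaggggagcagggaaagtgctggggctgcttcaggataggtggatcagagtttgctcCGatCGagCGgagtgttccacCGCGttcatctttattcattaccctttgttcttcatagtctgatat
Neto2, before the upstream start, chr8:85700925-85701174, minus strand: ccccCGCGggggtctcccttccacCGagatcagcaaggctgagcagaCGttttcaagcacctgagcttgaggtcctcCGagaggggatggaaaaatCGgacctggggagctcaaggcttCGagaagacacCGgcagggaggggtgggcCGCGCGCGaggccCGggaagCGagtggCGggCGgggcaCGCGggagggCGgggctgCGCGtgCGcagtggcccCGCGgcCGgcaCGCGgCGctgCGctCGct
Neto2, before the annotated start, chr8:85691010-85691259, minus strand: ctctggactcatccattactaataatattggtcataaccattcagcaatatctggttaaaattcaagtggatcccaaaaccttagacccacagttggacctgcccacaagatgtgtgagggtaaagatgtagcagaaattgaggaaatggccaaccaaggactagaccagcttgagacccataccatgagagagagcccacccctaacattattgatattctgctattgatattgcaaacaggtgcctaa
Before the upstream start of Psma6 there were 2 CG dinucleotides, against 20 before the annotated start. Klhl5 and Neto2 were the other way round. Klhl5 had 21 CG before the upstream start and 7 before the annotated one, and Neto2 had 30 and 0. The CG-rich stretch thus lay at the upstream start in 2 of these genes and at the annotated start in the third.

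The upstream distance was mostly short, with a long tail. Over the 467 genes, each represented by its furthest upstream start, the median distance was 620 bp, with quartiles of 330 and 4533 bp and a range of 200 to 80243 bp. The distance was used to choose the members and is a description only. New starts lay under 500 bp upstream in 195 genes (41.8%), from 500 to under 1000 bp in 76, from 1000 to under 5000 bp in 81, from 5000 to under 20000 bp in 77 and 20000 bp or more in 38. Members just inside the threshold were Ado and Ipo13 at 200 bp, Adam12 and Ascc1 at 201 bp and Pabpc4 at 203 bp. Just outside were models of Sh3pxd2a, 1 bp short of it, Fzd9 at 198 bp, Rbm10 at 195 bp, and Dnahc2 and Wdr1 at 194 bp. Wdr1 also had other models that met the rule, at 1677 bp, and is counted among the 467 genes. A further 611 models at 561 genes began less than 200 bp upstream and met the end rule, so the threshold cuts through a continuous range.

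The new 5′ ends took 3 forms, and which form a gene had went with the distance. Each member was compared with the RefSeq-derived model that shared the most introns with it. In 206 genes (44.1%, exact 95% interval 39.6 to 48.7) the first exon was extended, meaning that the new first exon overlapped the annotated one. In 107 genes (22.9%, 19.2 to 27.0) a separate exon lay upstream and the annotated first exon was kept, at least in part. In some of these the kept exon also reached upstream of the annotated start, so the added bases were not all in the separate exon. In 154 genes (33.0%, 28.7 to 37.4) the first exon of the reference model was skipped. In 3 of these, Crocc, Dock9 and Nfatc2, named because the count was small, no separate exon lay upstream of every annotated start, since the new first exon ran across the furthest annotated start, which belonged to another RefSeq-derived model. Exact intervals here and below cover counting error over genes of 1 table, which are not replicates of a condition.

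**Figure D1:**
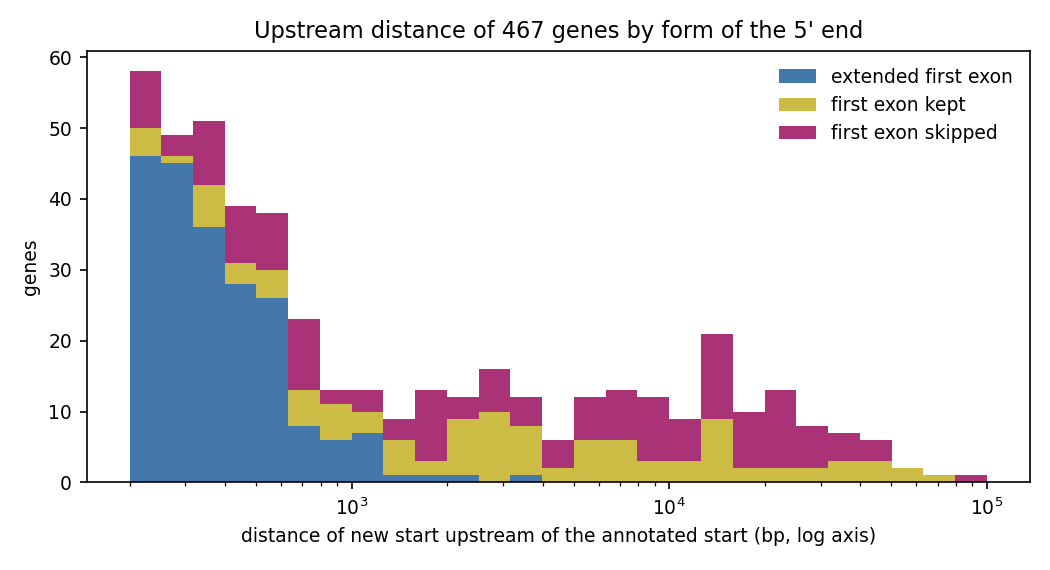
Number of genes (vertical axis) by distance of the new start upstream of the annotated start in bp (horizontal log axis), stacked by the form of the 5′ end, for 467 genes. Extended first exons make up 154 of the 195 genes below 500 bp and are absent at 5000 bp and above, where skipped first exons are the most frequent form.

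Extended first exons dominated the near starts and separate first exons the far ones. Among genes with starts under 500 bp upstream, 154 of 195 (79.0%) were extensions. The share was 53.9% (41 of 76) from 500 to under 1000 bp and 13.6% (11 of 81) from 1000 to under 5000 bp, and no extension was found among the 115 genes further out. Skipped first exons rose over the same ranges from 14.4% to 26.3%, 40.7%, 62.3% and 65.8%. Extensions had a median distance of 345.5 bp, models with a kept first exon 2840 bp and models with a skipped first exon 3970.5 bp. A long extension must be a long unbroken exon, so distance and form are not independent of each other.

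Skipping of the annotated first exon was almost always precise. In 147 of 154 such genes (95.5%, 90.9 to 98.2) the first annotated exon that the new model met was exon 2, and in 141 (91.6%, 86.0 to 95.4) it also entered that exon at the annotated splice acceptor. The form is that of an alternative first exon joined to a common second exon. In 4 genes it was exon 3. These were Hfm1, a helicase of meiotic crossover formation, Tubb2a, a beta-tubulin, Ccbl1 and Clec11a, the last 2 named because the count was small.

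Most new models added at most 1 whole exon. The exonic sequence added upstream of the annotated start had a median of 314 nt (quartiles 205 and 493.5). No whole exon was added in 209 genes, 1 in 193 and 2 or more in 65. Part of the next exon could also lie upstream of the annotated start, so these are not counts of separate stretches. The new model was longer than its reference in 366 of 467 genes (78.4%, 74.4 to 82.0), with a median gain of 248 nt after splicing. Models with a skipped first exon gained little, a median of 35 nt, with quartiles of -138.75 and 247.25 nt. First exons were under 20 nt in 3 genes, Polr1d (1 nt), Fam161a (4 nt) and Ppil3 (17 nt).

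Most models shared the larger part of their introns with the annotation, but most did not hold a whole annotated intron chain. Among the 462 genes with a spliced member, a median of 86.7% of a model's introns (quartiles 67.2 and 94.0) were identical to introns of a RefSeq-derived model of the gene. The whole intron chain of a RefSeq-derived model was held by 113 of 457 genes (24.7%, 20.8 to 28.9). It was held by 75 of 103 models with a kept first exon (72.8%), by 37 of 200 extensions (18.5%) and, as the loss of the first exon requires, by 1 of 154 with a skipped first exon. 2 other classes of NM_N models serve for comparison. Internal-start models met the same end rule but began at least 200 bp downstream of every annotated start, and models with annotated ends began and ended less than 200 bp from annotated positions. Of the latter, 160 of 885 genes held a whole chain (18.1%, 15.6 to 20.8).

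Gata1 and Gata4, 2 transcription factors of Sertoli cells, the somatic cells that nurse germ cells, had far upstream starts. Gata1 on the X chromosome (7536386 to 7553717 in mm9, minus strand) began 8776 bp upstream of its only RefSeq-derived model. Its first exon of 112 nt replaced the annotated first exon and joined exon 2, and both models had 6 exons and the same 3′ end. Gata4 on chromosome 14 (63817752 to 63890811, minus strand) began 26714 bp upstream with a first exon of 391 nt, again joined to exon 2. Gata4 had 2 such models with the same start, of 3677 and 3674 nt, which shared 4 and 5 of their 6 introns with the annotation, against 3393 nt for the annotated one. Of the 14 Sertoli genes on the list with an NM-coded model, these 2 had an upstream start (14.3%, 1.78 to 42.8), against 3.51% of all genes tested. The interval holds that background.

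**Figure D2:**
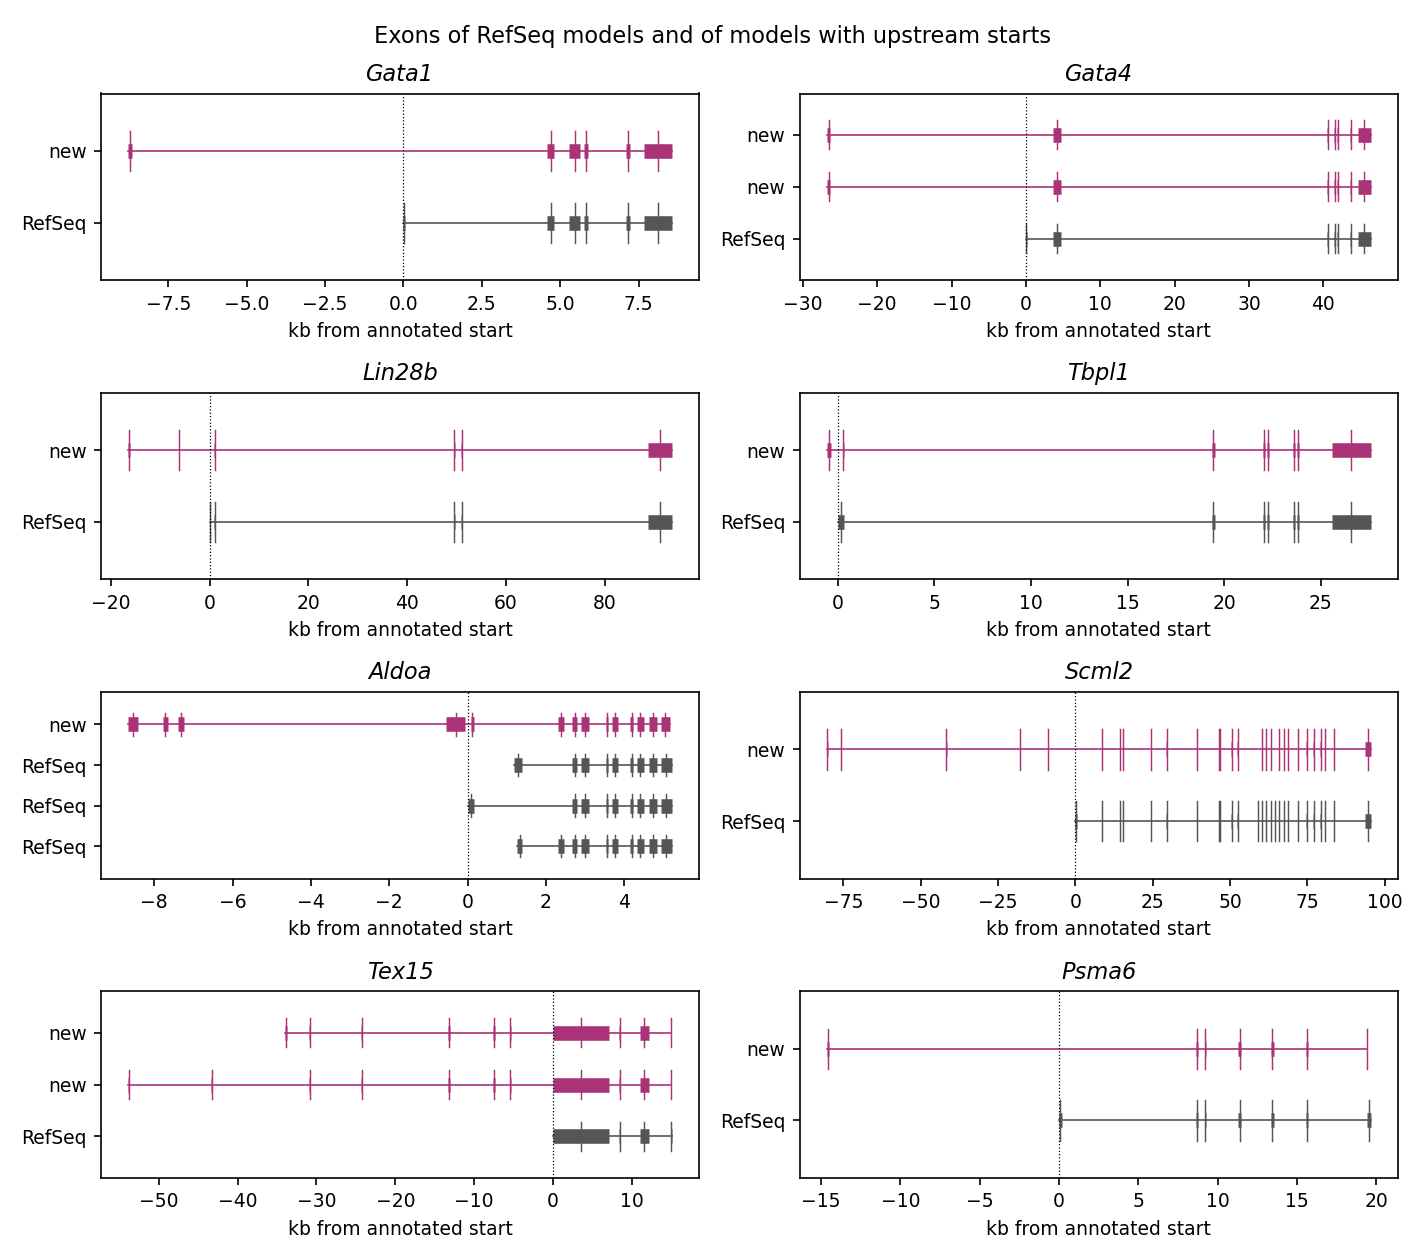
Exons (thick marks) of RefSeq-derived models in grey and of new models in purple for 8 genes, with position in kb from the furthest upstream annotated start (dotted line), transcription running left to right. The new first exon of Gata1 lies 8776 bp and that of Gata4 26714 bp upstream, and in both the new first exon is joined to exon 2.

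Tbpl1 was the 1 member from the list of germ-line transcription factors, and 2 genes from outside it are described with it, Lin28b chosen after its values were seen and Scml2 for its distance. Tbpl1, a relative of the TATA-binding protein needed to complete sperm formation, had a new exon of 204 nt beginning 539 bp upstream (chromosome 10, 22423682 to 22451792, minus strand). The new exon was joined into the annotated first exon, and the whole annotated intron chain was kept. Lin28b, which blocks the making of let-7 microRNAs, began 16431 bp upstream on the same chromosome (45096425 to 45206438, minus strand). It gained 2 exons of 455 nt together and skipped its annotated first exon. Scml2, a Polycomb protein of the male germ line, had the furthest start of all, 80243 bp upstream on the X chromosome (157520461 to 157696145, plus strand). Its 28 exons included 5 upstream of the annotated start that added 470 nt, and 20 of its 27 introns were annotated ones.

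The piRNA, meiosis and sperm genes with an upstream start were few. Tdrd7, a Tudor-domain protein of the germ granule, was the only one of 20 piRNA pathway genes (5%, 0.127 to 24.9). Its 2 models began 15248 and 14786 bp upstream on chromosome 4 (the longer at 45985086 to 46047453, plus strand), each with its own first exon of 223 or 320 nt joined into the annotated first exon. Among 29 genes of meiotic prophase, Ccna1, the cyclin A1 of the meiotic divisions, began 456 bp upstream and Hfm1 373 bp upstream, both with a skipped first exon. Tekt2, a tektin of the sperm flagellum, began 500 bp upstream and was the only one of 25 sperm genes. Tbpl1 was the only one of 17 germ-line transcription factors. Each of these shares rests on 1 or 2 genes, and each interval holds the background of 3.51%.

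Tex15, a germ-cell protein needed for meiotic recombination, gained 7 exons, a count passed only by Qrich2 with 8 among the genes whose leader did not run through another gene. Its annotated model on chromosome 8 had 4 exons. The first new model began 53854 bp upstream (34627162 to 34695993, plus strand) with 7 added exons of 1056 nt. The other began 33943 bp upstream with 6 added exons of 1031 nt. Both kept all 3 annotated introns, and both ended 64 bp from the annotated end.

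Lists for other cells and for constant genes held no member. The counts were 0 of 15 spermatogonial genes, 0 of 9 Leydig genes, 0 of 8 peritubular, vascular and immune genes, 0 of 9 housekeeping genes and 0 of 1 gene of other tissues. None of the 6 genes chosen as textbook cases of germ-cell promoters (Ace, Kit, Crem, Tbp, Dnmt1 and Prkaca) had a model that met the rule. The rule admits only starts upstream of every annotated one. A germ-cell promoter inside the gene, or one already annotated, could not have counted, so this count does not bear on such promoters. The upper exact limits on these shares ran from 21.8% for spermatogonial genes to 97.5% for the list with 1 gene, so a share at the background of 3.51% is within all of them.

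Classes built from the stems of gene symbols spread around the background. Protein kinase stems gave 10 of 173 genes (5.78%, 2.81 to 10.4), transporter and channel stems 18 of 340 (5.29%, 3.17 to 8.24), vesicle traffic stems 9 of 176 (5.11%, 2.36 to 9.49), RIKEN clone names 33 of 713 (4.63%, 3.21 to 6.44) and ubiquitin stems 13 of 290 (4.48%, 2.41 to 7.54). Centrosome, cilium and axoneme stems gave 17 of 459 (3.70%), chromatin stems 5 of 145 (3.45%) and small GTPase stems 7 of 222 (3.15%). Lower were zinc finger stems with 8 of 325 (2.46%, 1.07 to 4.79), Tmem and like stems with 4 of 182 (2.20%), mitochondrial stems with 5 of 242 (2.07%, 0.674 to 4.76) and RNA processing stems with 5 of 246 (2.03%, 0.663 to 4.68). The interval of every class held 3.51%. Stems sort names and not functions: Cdkn2c, an inhibitor of cyclin-dependent kinases, and Csnka2ip fell under kinase stems, and Slc4a1ap under transporters.

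**Figure D3:**
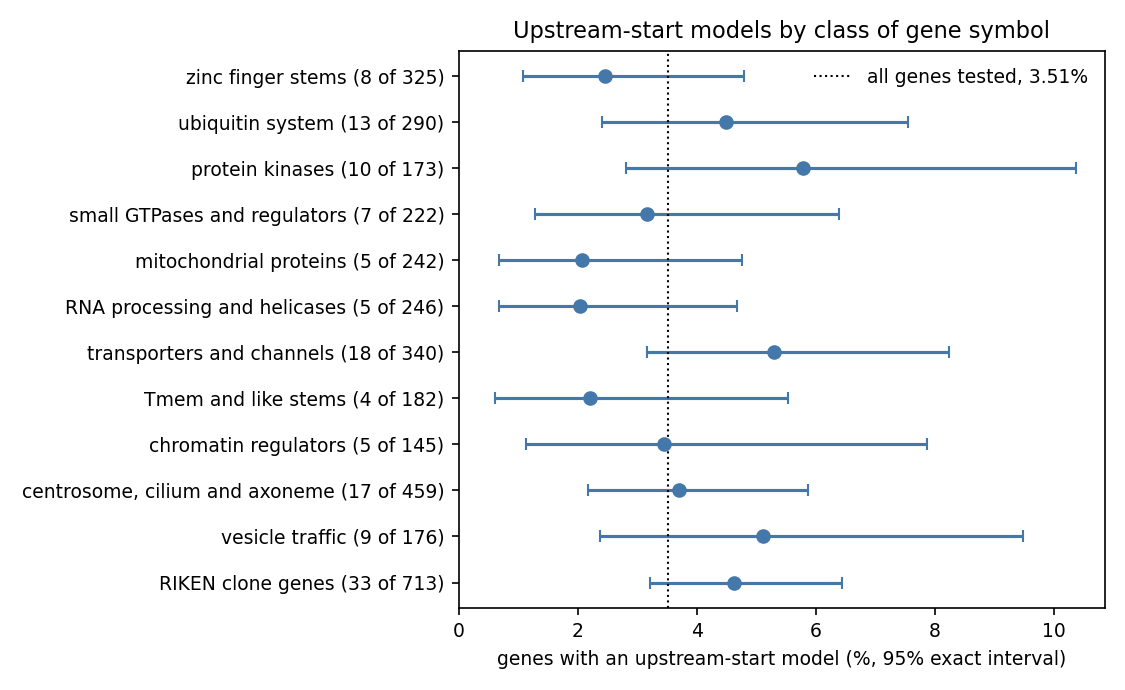
Share of genes with an upstream-start model (horizontal axis, percent, with exact 95% intervals) in 12 classes of gene symbol, with numbers of genes in brackets and the share of all 13307 genes tested as a dotted line at 3.51%. All 12 intervals cross the line.

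Within these classes the far starts were mostly alternative first exons. Among ubiquitin-related genes, Rnf170, a ubiquitin ligase, began 36761 bp upstream, Klhl5 23677 bp and Usp54 23022 bp, and all skipped the annotated first exon. Brd3, a bromodomain protein that reads acetylated histones, began 31971 bp upstream, and Smarcd3, a subunit of chromatin-remodelling complexes, 20655 bp, both with 1 new exon joined to exon 2. Arid3b began 2635 bp upstream and kept its first exon. In the cilium class, Bbs4, a subunit of the BBSome that carries cargo to cilia, began 22480 bp upstream and skipped its first exon. Tubb2a began 17452 bp upstream with 2 new exons, and Ttll6, a tubulin glutamylase, 9298 bp upstream with the first exon kept.

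Transporter, kinase and other genes gave further cases of each form. Abcc12, an ABC transporter, began 14082 bp upstream and kept all of its annotated introns. Slc22a18, an organic cation transporter, began 7650 bp upstream with 3 new exons of 987 nt, and Atp10a, a flippase, 2041 bp upstream with a new exon of 22 nt. Exoc6, a subunit of the exocyst, began 13793 bp upstream and Syt11, a synaptotagmin, 2553 bp. Cdkn2c had a new exon of 1504 nt beginning 1741 bp upstream, longer than its whole annotated model of 1106 nt. Csnk2b, the regulatory subunit of casein kinase 2, began 743 bp upstream. Dhx30 (2168 bp), Ddx6 (366 bp) and Ddx20 (354 bp) led the RNA helicases.

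Aldoa, the glycolytic enzyme aldolase A, shows the rule at a gene with several annotated starts. It had 3 RefSeq-derived models on chromosome 7. The new model (133938786 to 133952623, minus strand) began 8662 bp upstream of the furthest of them, with 4 added exons of 1027 nt. It was 2514 nt long, against 1588 nt for the reference model. Aldoa is not in the lists and was chosen after its values were seen. Most member genes were simpler, as 380 of 467 (81.4%, 77.5 to 84.8) had 1 RefSeq-derived model.

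More than 1 new start per gene was uncommon. With starts more than 50 bp apart counted separately, 27 of 467 genes (5.78%, 3.84 to 8.30) had at least 2. Garnl3 and Zfp238 had 3 each. The starts of Garnl3 lay 44623, 44459 and 43454 bp upstream, and all 3 models shared 27 of their 29 introns with the annotation. Zfp238, a zinc finger repressor now called Zbtb18, had first exons of 22, 753 and 1059 nt at 5063, 2818 and 1627 bp upstream, all in models with 2 exons. Tdrd7 and Tex15, above, were among the genes with 2.

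The longest leaders often ran through another gene. In 19 of 467 genes (4.07%, 2.47 to 6.28) the model shared exonic bases upstream of the annotated start with a RefSeq-derived model of another symbol on the same strand, and in 17 it shared an intron with it. Such models, as assembled, join neighbouring genes, and whether the joined transcript exists was not tested. All 19 were at distances over 1000 bp: 2 of 81 genes under 5000 bp, 9 of 77 from 5000 to under 20000 bp and 8 of 38 (21.1%, 9.55 to 37.3) beyond. Their median leader was 1423 nt, against 304.5 nt in the other 448 genes, and a median of 50% of their introns came from RefSeq-derived models of the gene itself, against 87.5%.

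Several of these joined models began at the annotated start of the upstream neighbour. In 8 genes (1.71%, 0.742 to 3.35) the new start lay within 50 bp of a RefSeq-derived start of another symbol. Osgin1 began at Mlycd, the malonyl-CoA decarboxylase, 42281 bp upstream. Syce1l began at Mon1b (7643 bp) and Josd2, a deubiquitinase, at Aspdh (2545 bp). Lime1 began at Zgpat (15833 bp), Aldh3b2 at 1700055N04Rik (13520 bp), Adh4 at the pseudogene Adh6-ps1 (41376 bp) and 2700049A03Rik at Tomm20l (25427 bp). No internal-start gene of 1055, and none of 912 with annotated ends, shared a start with a model of another name in this way. By definition those models begin downstream of, or less than 200 bp from, an annotated start of their own gene. The start of a distant upstream neighbour was not open to them, so these counts are no contrast.

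Other joined models began within or beyond the neighbour. Tex22 had the longest leader of all, 5635 nt in 23 added exons, which ran through Pacs2 and began 60049 bp upstream. Vps33b, a protein of vesicle fusion, began 21313 bp upstream and took in 13 added exons (4162 nt) of Ttll13 and Ngrn. Ndufb9, a subunit of respiratory complex I, took in 3382 nt with an intron of Rnf139, a ubiquitin ligase, from 44887 bp upstream. 4933413G19Rik took in 4380 nt in 8 exons with Foxm1, a cell cycle transcription factor, and St6galnac6 took in 4003 nt with its relative St6galnac4. Schip1 was joined to Iqcj, for which the table also held a RefSeq-derived model named Iqcj-schip1.

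Leaders could also be long without a neighbour. Qrich2 gained 4936 nt in 8 exons from 11963 bp upstream. Scly, the selenocysteine lyase, had the longest extension, an unbroken 3651 nt added to its first exon. Ier2, an immediate early gene with a single exon, was extended by 2259 nt. Further far starts without a joined gene were those of Sipa1l2 (77108 bp), Gm4907 (48090 bp) and Olfr1188 (40575 bp). Olfr1188 is an olfactory receptor gene whose annotated model has 1 exon, to which 3 exons of 348 nt were added.

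Fewer new starts than annotated starts of the same genes had a head-to-head partner. A head-to-head partner is a model on the other strand that starts 1 to 500 bp upstream. One was found at 35 of 467 new starts (7.49%, 5.28 to 10.3) and at 60 of the 467 annotated starts (12.8%, 9.95 to 16.2). It was at both starts in 9 genes, only at the new start in 26, only at the annotated start in 51 and at neither in 381. Internal-start genes had a partner at 32 of 1055 new starts (3.03%, 2.08 to 4.26) and 107 annotated starts (10.1%, 8.39 to 12.1). Genes with annotated ends had one at 120 of 912 (13.2%, 11.03 to 15.5). Over all 13307 genes tested it was 14.8% (14.2 to 15.4) at the furthest annotated start. These shares were not tested against each other. The rule also fixes part of the gap. A partner within 200 bp before the annotated start, found at 7.49% of annotated starts, cannot be a partner of the new start. The rule places the new start level with it or further upstream. The gap depended on the settings. With a window of 200 bp the shares were 5.78% at new and 7.49% at annotated starts, and without CUFF-alone partners 4.50% and 11.8%. For genes at least 500 bp upstream they were close, 7.72% and 8.82%.

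The gap between the 2 starts was widest at extended first exons. Here too the rule fixes part of it. Extensions had a partner at 40 of 206 annotated starts (19.4%, 14.2 to 25.5) and 14 new starts (6.80%, 3.77 to 11.1). Models with a skipped first exon had one at 17 of 154 annotated starts (11.04%) and 11 new starts (7.14%). Models with a kept first exon went the other way, with 3 of 107 annotated starts (2.80%, 0.582 to 7.98) and 10 new starts (9.35%, 4.57 to 16.5).

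Some new starts had a head-to-head partner within 500 bp where the annotated start had none. For starts not far upstream this can rest on the window. In 1500011H22Rik (458 bp upstream), Tada3 and BC032203 (878 bp upstream) the same partner lay within 1000 bp of the annotated start. Dbndd1 began 3361 bp upstream, 19 bp from Gas8, a regulator of the axoneme. Dusp3, a dual-specificity phosphatase, began 2241 bp upstream and 24 bp from 1700006E09Rik. 1300017J02Rik began 16838 bp upstream and 47 bp from Topbp1, a checkpoint protein of DNA replication. Tada3, a subunit of histone acetyltransferase complexes, began 541 bp upstream and 52 bp from Arpc4, a subunit of the Arp2/3 complex. Ccnt1, the cyclin of the elongation factor P-TEFb, lay 53 bp from 4930415O20Rik, and Wfdc3 lay 36 bp from Dnttip1. Mrps21 lay 38 bp from C920021L13Rik, Pnpla7 81 bp from Mrpl41 and 1500011H22Rik 87 bp from Gpn3. BC032203 lay 56 bp from a CUFF model with no gene name. Of the 35 nearest partners, 17 were RefSeq-derived, 14 were CUFF models alone and 4 were CUFF models with a symbol.

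**Figure D4:**
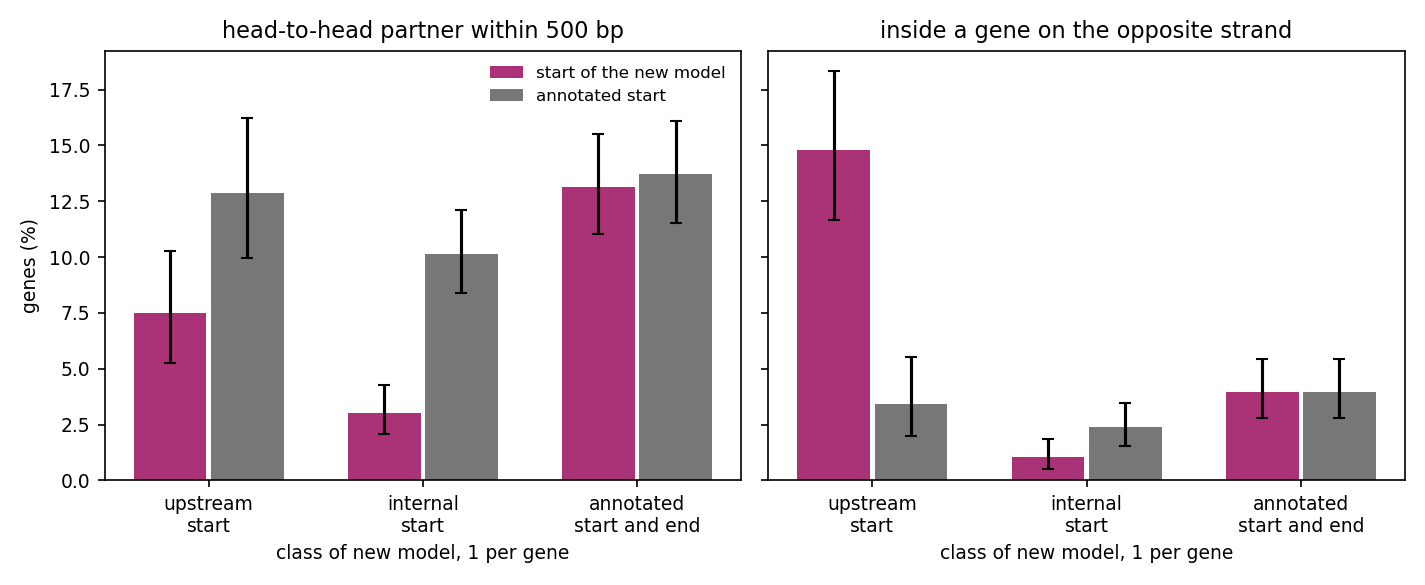
Share of genes (percent, bars from 0, exact 95% intervals) with a head-to-head partner within 500 bp (left) or with the start inside a gene on the opposite strand (right), at the start of the new model in purple and at the annotated start in grey, for 467 upstream-start, 1055 internal-start and 912 annotated-start-and-end genes. For upstream-start genes the left bars fall from 12.8% at the annotated start to 7.49% at the new one (8.82% and 7.72% for genes at least 500 bp upstream), while the right bars go from 3.43% to 14.8%.

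New starts more often lay inside a gene on the other strand. This was so for 69 of 467 new starts (14.8%, 11.7 to 18.3) and for 16 of the 467 annotated starts (3.43%, 1.97 to 5.50). Counted only within exons of the other gene, it was 7.07% of new starts. A start moved upstream past a head-to-head partner can come to lie inside it. This share and the head-to-head gap are therefore not independent. In 75 genes (16.1%, 12.8 to 19.7) an opposite-strand start lay between the annotated and the new start. The new model thus began beyond its neighbour's start, and the genomic spans of the 2 overlapped, though their exons need not. Examples, chosen after their values were seen, were Rnf170, which began inside Hook3, Cep170 inside Sdccag8, Gdf9, a growth factor of the oocyte, inside Uqcrq, and Ccna1 inside 4931419H13Rik. The shares for internal-start genes were 1.04% at the new start and 2.37% at the annotated start. On the same strand, 9 new starts (1.93%, 0.885 to 3.63) lay inside a gene of another symbol, against 4 annotated starts, and 0.642% of new starts lay within an exon of it.

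Later RefSeq annotation held pairs of starts at a similar spacing for some of these genes. The GRCm38.p6 promoter table listed 403 of the 467 genes and at least 2 starts for 117 of them. In 22 of the 117 (18.8%) the spacing between 2 listed starts was within 50 bp of the spacing between the new start and an annotated one, and in 6 it was within 10 bp. The same match was found for 24 of 223 internal-start genes (10.8%) and 40 of 105 genes with starts less than 200 bp upstream (38.1%), whose spacings are shorter. How often spacings match by chance was not measured. The 6 closest were Psma6 (14601 bp in mm9, 14603 bp in GRCm38.p6), Fen1 (475 and 472), Haghl (245 and 248), 1700018B08Rik (2377 and 2374), Eno1 (494 and 489) and Zfp46 (1385 and 1391). Fen1 is the flap endonuclease of DNA replication and Eno1 the glycolytic enolase. Long spacings also matched for Klhl5 (23677 and 23663 bp), Bckdhb (23614 and 23644), Zfp72 (14250 and 14263) and Neto2 (9887 and 9915).

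CpG content at these 22 pairs of listed starts went in both directions. In the 300-base window from 250 before to 50 after a start, the upstream starts had a median of 12.5 CG (range 3 to 36) and the annotated starts 17.5 (range 0 to 40), against 7 over all 32841 windows of the table. The upstream start had fewer in 13 genes, more in 8 and as many in 1. Ate1, which adds arginine to protein ends, had 5 at the upstream and 34 at the annotated start, and Psma6 had 3 and 22. Ate1 had 3 RefSeq-derived models. Its match used the spacing of 748 bp to the start of 1 of them, not the 317 bp to the furthest upstream annotated start. Neto2 had 36 and 0, and Bckdhb, a subunit of the branched-chain keto acid dehydrogenase, 20 and 2. The windows of a pair overlapped where the spacing was under 300 bp, as for Prdm4, Haghl and Ppm1m.

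**Figure D5:**
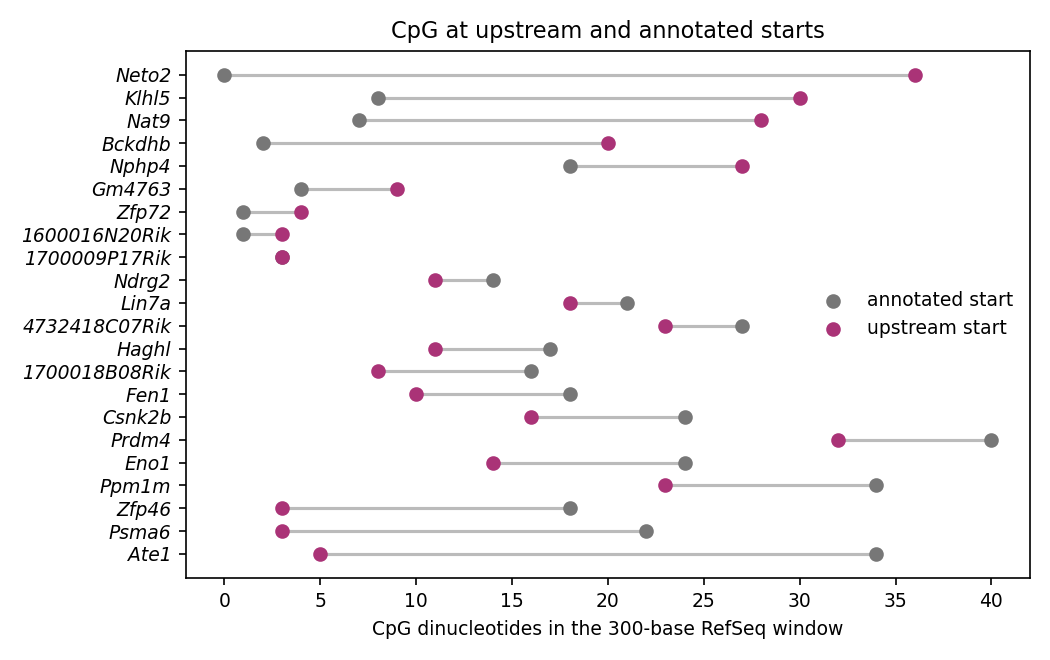
Number of CG dinucleotides (horizontal axis) in the 300-base RefSeq window at the upstream listed start (purple) and at the listed start matched to the annotated one (grey) of 22 genes, joined by a line per gene. The upstream start has more CG in 8 genes, led by Neto2 with 36 against 0, and fewer in 13, led by Ate1 with 5 against 34. For Ate1 the annotated start matched is not the furthest upstream one.

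A MYB recognition motif was looked for in the same windows. MYB proteins are transcription factors, and A-MYB is known for its role in meiotic germ cells. The motif was CAACTG or CAACGG, or either with T as the first base, on either strand. No more than 1 form can match at a position on a strand. It was in 7 of 22 upstream windows and 11 of 22 annotated windows, against 28.3% of all windows in the table. A match is a description of letters and not of binding.

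Upstream-start genes lay on all autosomes and on X. On X were 16 of 467 (3.43%, 1.97 to 5.50), among them Gata1 and Scml2, against 531 of 13307 genes tested (3.99%). Among autosomes and X, the counts were highest on chromosome 7, with 51 of 1035 genes, and lowest on chromosome 18, with 7 of 361. On Y there were 0 of 10. No member gene had a piRNA-named model, but neither did any of the 5262 genes with an NM_N model.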

How the data were processed

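The series held CAGE and PAS-Seq libraries of wild-type testis, 3 in all and 1 per group, and 1 deposited table of 12 BED columns. Both kinds of library mark ends of transcripts. Which reads gave the exons between the ends cannot be told from the table. The measurements are positions and exon numbers. The submitters' processing notes name TopHat2 2.0.4 and build mm9. The assembler, the annotation release and whether and how reads of either kind set the ends were not stated in the labels. An error of assembly cannot be told apart from a real start. Positions are counted from 1 in mm9.

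Models were sorted with Python 3.11.15, and shares given exact Clopper-Pearson 95% intervals with scipy 1.17.1. No test was run, because the table has no replicates and its models are not replicates. The sorting was tested on 200 simulated models with known ends. Named genes are list members, up to 3 genes per stem class by distance, the extremes of distance, leader length, number of starts and partner distance, and those at the threshold. Lin28b, Aldoa, the genes of the promoter comparison, the genes inside opposite-strand neighbours and those named for a small count were chosen after their values were seen. No member lay within 50 bp of a piRNA-named start. The members, lists and measures were chosen with earlier results of these data known. Promoter sequences are RefSeq's, build GRCm38.p6, and the match by spacing was added after the table had been read. Some results are not reported here.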

Additional observations from a re-analysis of the deposited data

How the results depend on the processing

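The choice of distance and end tolerance set the number of genes. With a minimum of 500 bp there were 272 genes and with 1000 bp 196, and with ends within 50 bp 292, against 467. With a minimum of 100 bp there were 589 and with ends less than 500 bp apart 600. Intron ends matched within 10 bp raised the share holding a whole RefSeq chain from 24.7% to 29.3%. The share of annotated starts with a head-to-head partner, 12.8% as reported, was 7.49% with a window of 200 bp, 17.1% with 1000 bp and 8.82% for genes at least 500 bp upstream. The new starts of the same genes gave 5.78%, 9.64% and 7.72%. Without CUFF-alone partners it was 4.50% at new starts and 11.8% at annotated ones. The new starts were lower in each of these alternatives, all of which keep the rule that fixes part of the gap. Counted only within exons, starts inside another gene fell to 0.642% on the same strand and 7.07% on the opposite strand. A later RefSeq pair of starts with a spacing within 10 bp was found for 5.13% of genes with several listed starts. The distance to the nearest RefSeq start is by construction the distance reported. Without the joined genes, an alternative added after seeing the data, the median distance was 574.5 bp. Depth per library is unknown, so a start not in the table may be one that was not sampled.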

Other observations

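At 2 gene pairs on opposite strands, both genes had a new start inside the other. Nif3l1 and Ppil3 on chromosome 1 have annotated starts 2147 bp apart, facing away from each other. The new start of Nif3l1 lay 2798 bp upstream and that of Ppil3, a cyclophilin-like protein, 2164 bp upstream. The genomic spans of the new models therefore overlap over 2816 bp, introns included. The first exon of the Ppil3 model is 17 nt. Coq6, an enzyme of coenzyme Q synthesis, and Fam161b on chromosome 12 have annotated starts 147 bp apart. Their new starts lay 323 and 348 bp upstream, and the overlap spans 525 bp.

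Some member genes also had other new isoforms. An internal-start model was present at 42 of the 467 genes (8.99%, 6.56 to 11.96), and a new model with annotated ends at 26 (5.57%, 3.67 to 8.05). The rule requires a RefSeq-derived model for every member. At 462 genes it carried an NM_R code and at the other 5, among them Gdf9 and Zfp111, an XX_R code.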
